A study of Homo sapiens with 12 samples.

Results

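The control arrays of a BRG1 knockdown study allow a comparison of its 2 colorectal cancer lines, HCT 116 and DLD1, with BRG1 left in place. The comparison set the 3 arrays of HCT 116 cells given a control siRNA (HCT 116 siControl) against the 3 arrays of DLD1 cells given an siRNA with the same label (DLD1 siControl). These are 6 of the 12 arrays of the study. The other 6, from HCT 116 and DLD1 cells given an siRNA against BRG1 (siBRG1), served as a second set in which to look at the line difference. Each group is 1 established human line grown in culture, so each value describes that line and not a class of tumours. Every gene with 1 symbol on the array was kept, which gave 17687 genes. For 4 HCT 116 samples the source name gives a differently numbered line or siRNA from the title, and the title was used for grouping.

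HCT 116 and DLD1 both come from human colorectal carcinoma. HCT 116 is known for a stabilised beta-catenin and DLD1 for a truncated APC protein, each of which keeps Wnt signalling switched on. Both lines are classed as mismatch repair deficient, DLD1 through loss of MSH6. Normal colon epithelium is held together by E-cadherin, keratins and claudins, and is specified by transcription factors such as CDX2 and GATA6. Its crypts keep LGR5-positive stem cells that divide under Wnt control, while goblet cells secrete mucus and enteroendocrine cells release peptides.

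Values are log2 levels, on which a difference of 1 is a 2-fold difference, and every difference is given as HCT 116 minus DLD1. The median over all 21448 features of an array was 6.46, 6.46 and 6.47 in HCT 116 siControl, against 6.36, 6.48 and 6.4 in DLD1 siControl. Over the named genes it was 6.78 to 6.89 in both lines, and this is the array median that levels are set against below. Arrays correlated across genes at 0.989 to 0.995 within HCT 116 siControl, 0.991 to 0.993 within DLD1 siControl and 0.94 to 0.948 between the lines. Precision is limited by the number of arrays. The median standard deviation (SD) of a gene was 0.241 in HCT 116 and 0.223 in DLD1. Whether replicate arrays stand for separate cultures is not stated in the labels, and p-values therefore reflect only the variation among these arrays. No detection calls were used here, so a level well below the array median cannot be told from background and the size of a difference against such a level is uncertain. In bulk RNA, fewer cells expressing a gene and less of its RNA per cell cannot be told apart.

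The epithelial label was checked first. Of 10 colorectal epithelium markers, 6 lay above the array median on every HCT 116 array (CDH1, EPCAM, KRT8, KRT18, KRT19 and CDX2) and 7 on every DLD1 array, where CDH17 joined them. The mean over the 10 was 9.6 to 9.88 on HCT 116 arrays, against 11.62 to 11.8 on DLD1 arrays, so the epithelial marker level was lower in HCT 116 although both lines carried it. Of 14 fibroblast markers 2 were above the median on all arrays of each line (COL1A2 and ACTA2), with means of 4.33 to 4.62 in HCT 116 and 4.18 to 4.39 in DLD1. Of 17 immune cell markers CD79A alone was above it in both lines, with means of 4.8 to 5.01 in HCT 116 and 4.77 to 4.85 in DLD1. Of 12 endothelial markers none was above it on all HCT 116 arrays and ERG alone was in DLD1, with means of 4.39 to 4.7 in HCT 116 and 4.53 to 4.66 in DLD1.

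BRG1 itself, the product of SMARCA4 and an ATPase of the SWI/SNF chromatin remodellers, did not differ detectably between the control lines. SMARCA4 read 10.12, 10.15 and 9.59 in HCT 116, against 10.31, 9.95 and 10.29 in DLD1. The groups overlapped, and the difference of −0.23 (SE 0.21) did not pass (limma adjusted p = 0.491; 2-sided exact permutation p = 0.5). SMARCA2, which encodes the alternative ATPase BRM, read 4.51, 5.67 and 5.25 in HCT 116, against 7.87, 7.48 and 6.73 in DLD1. Every HCT 116 value lay below every DLD1 value and below the median of its own array, with a difference of −2.22 (SE 0.32, limma adjusted p = 6.65e-05). The exact permutation p was 0.1, the smallest that 3 arrays against 3 can give.

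Across the array, 4884 of 17687 genes differed between the control lines at a limma adjusted p under 0.05, which is 27.6% of the genes tested. HCT 116 was higher for 2402 of them (13.6%) and lower for 2482 (14%). Calls were rarer among low genes. Of all genes, 7867 lay below the median on all 6 arrays, while 888 called genes had both lines' means below the lowest array median. The 27.6% is therefore a low mark for lists of mostly expressed genes, and a list share above it is not by itself a trait of the list. A further description needs no test: the arrays of the lines did not overlap for 7073 genes (40% of all genes), and 4787 of the 4884 called genes were among these. The median difference over all genes was 0.034, and the median size of a difference was 0.324. A difference of at least 2 log2 units was found for 994 genes, every one of them called, and of at least 3 for 489. At the threshold stood RTKN (−0.51, SE 0.18, limma adjusted p = 0.04996), while GBP2, an interferon-induced GTPase, fell just short (−0.73, SE 0.26, limma adjusted p = 0.05001).

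Some of these differences crossed the array median. A called gene was termed switch-like where it differed by at least 3 log2 units and its 3 arrays of one line lay above, and its 3 arrays of the other line below, the median of all genes on their own array. There were 331 such genes (1.87% of all genes), 170 on in HCT 116 (0.961%) and 161 on in DLD1 (0.91%). Here "on" means only above that median, and some of these genes lay close to it in one of the lines. In the plot of levels by line they form a cloud on each side of the diagonal, well apart from the band in which most genes lie.

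**Figure D1:**
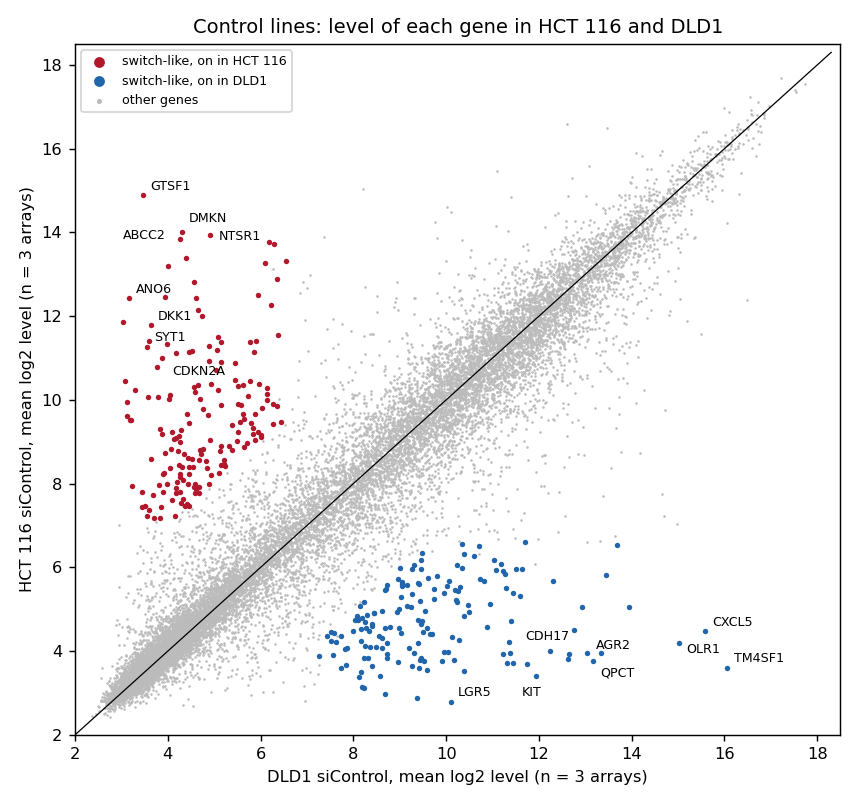
Mean log2 level of each of 17687 genes in HCT 116 siControl (vertical axis) and DLD1 siControl (horizontal axis), 3 arrays each, with the line of equal level. Red points mark switch-like genes on in HCT 116 and blue points those on in DLD1 (330 of the 331 are coloured); GTSF1 sits at the top left and TM4SF1 at the lower right.

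The promoters of the 2 genes with the largest difference in each direction are shown, since these genes lie near the bottom of the scale in one line and near its top in the other. Each line gives the 250 bases before the annotated start, 5′ to 3′ on the gene's strand (RefSeq, GRCh38.p14), with each CpG dinucleotide in capitals. All 4 genes are on the minus strand: GTSF1 at chr12:54473603-54473852, DMKN at chr19:35510471-35510720, TM4SF1 at chr3:149377650-149377899 and CXCL5 at chr4:73998678-73998927.
GTSF1: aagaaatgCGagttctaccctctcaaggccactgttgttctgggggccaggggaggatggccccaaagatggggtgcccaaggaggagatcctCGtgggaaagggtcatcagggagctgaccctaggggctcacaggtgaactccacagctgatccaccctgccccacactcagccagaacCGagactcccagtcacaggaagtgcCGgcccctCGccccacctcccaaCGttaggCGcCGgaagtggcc
DMKN: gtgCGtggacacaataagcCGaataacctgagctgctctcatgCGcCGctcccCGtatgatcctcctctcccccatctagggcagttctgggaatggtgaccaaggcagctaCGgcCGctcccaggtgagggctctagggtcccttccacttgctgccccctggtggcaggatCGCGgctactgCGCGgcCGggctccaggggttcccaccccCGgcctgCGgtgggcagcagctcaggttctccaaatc
TM4SF1: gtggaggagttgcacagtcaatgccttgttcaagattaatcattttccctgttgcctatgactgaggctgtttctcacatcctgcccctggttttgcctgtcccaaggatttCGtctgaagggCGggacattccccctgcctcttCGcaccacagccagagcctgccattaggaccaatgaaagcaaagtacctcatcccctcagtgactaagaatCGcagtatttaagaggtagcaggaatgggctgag
CXCL5: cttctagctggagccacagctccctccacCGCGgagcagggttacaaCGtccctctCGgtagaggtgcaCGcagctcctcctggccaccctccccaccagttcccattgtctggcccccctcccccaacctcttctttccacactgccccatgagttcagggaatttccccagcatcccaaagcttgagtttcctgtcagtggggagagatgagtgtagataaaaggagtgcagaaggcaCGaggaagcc
The GTSF1 stretch holds 8 CpG, 0.33 of the number its base composition would give, and the DMKN stretch 14 (0.54 of that number). The TM4SF1 stretch holds 4 (0.25) and the CXCL5 stretch 6 (0.29). The motif TATAAA was absent from all 4 on both strands.

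Among the 4, GTSF1 and DMKN were on in HCT 116. GTSF1, a small zinc finger protein of the germline piRNA pathway, read 15.12, 14.82 and 14.71 in HCT 116, against 3.06, 3.93 and 3.38 in DLD1. The difference was 11.42 (SE 0.28, limma adjusted p = 2.96e-13), the largest rise among the genes tested. DMKN, which encodes the secreted epidermal protein dermokine, read 14.11, 13.97 and 13.91 in HCT 116, against 4.19, 4.11 and 4.59 in DLD1 (9.70, SE 0.17, limma adjusted p = 1.61e-14). TM4SF1 and CXCL5 were the reverse. TM4SF1, a membrane protein of the transmembrane 4 L6 family, read 3.69, 3.79 and 3.31 in HCT 116, against 16.22, 16.15 and 15.79 in DLD1 (−12.46, SE 0.18, limma adjusted p = 1.79e-15). CXCL5, a chemokine that attracts neutrophils, read 4.27, 4.60 and 4.57 in HCT 116, against 15.44, 15.82 and 15.51 in DLD1 (−11.11, SE 0.22, limma adjusted p = 2.48e-14). In each of the 4, one line was near the bottom of the scale on all its arrays and the other at 13.91 or above.

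The next differences in each direction were spread over transporters, receptors and enzymes. ABCC2, the efflux pump for conjugated drugs and bilirubin, read 14.44, 13.64 and 13.48 in HCT 116, against 3.89, 4.59 and 4.32 in DLD1 (9.58, SE 0.28). Also on in HCT 116 were the phospholipid scramblase gene ANO6 (9.28), the glutamine transporter gene SLC38A5 (9.18), the neurotensin receptor gene NTSR1 (9.03) and the cancer testis antigen gene MAGEB2 (8.98). OR51B5, of the olfactory receptor family, followed at 8.82, then PDE4B, a phosphodiesterase that breaks down cyclic AMP (8.52), the purine transporter gene SLC43A3 (8.26), the endosomal GTPase gene RAB31 (7.82), the anthrax toxin receptor gene ANTXR1 (7.81) and the membrane protein gene EMP3 (7.6).

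On in DLD1 were OLR1, a receptor for oxidised low-density lipoprotein (−10.81), QPCT, the glutaminyl cyclase that forms pyroglutamate at the start of peptides (−9.40), and the nuclear receptor gene RORA (−9.40). KIT, the receptor for stem cell factor, read 3.51, 3.19 and 3.52 in HCT 116, against 12.30, 11.53 and 11.97 in DLD1 (−8.53, SE 0.25, limma adjusted p = 1.78e-12), again with no overlap. The queuosine nucleosidase gene QNG1 (−8.81), TMEM52B (−8.91), the extracellular matrix gene TGFBI (−8.23), the carbonyl reductase gene CBR1 (−8.04) and the protease inhibitor gene CST7 (−7.86) had the same pattern. TNNC1, a troponin subunit of muscle, differed by −7.94 but 2 of its 3 HCT 116 arrays were above the array median, so it was not switch-like.

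A sequence feature that the comparison did not use was set beside these groups. Of the genes tested, 14250 had a RefSeq promoter window of 300 bases, 250 before and 50 after the start, and 66.9% of the windows had a CpG content of at least 0.6 of that expected from base composition. The share was 79.2% among 1902 genes called higher in HCT 116 and 77.3% among 2063 called lower, above the share of all windows in both directions. It was 65.6% for 128 switch-like genes on in HCT 116 and 51.2% for 121 on in DLD1. For comparison, it was 88.6% for genes above the median on all 6 arrays and 42.1% for genes below it on all 6. The motif TATAAA, searched on both strands, stood in 9.38% of the windows of genes on in HCT 116, 11.6% of those on in DLD1 and 9.41% of all windows. These shares are descriptions with no test.

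**Figure D2:**
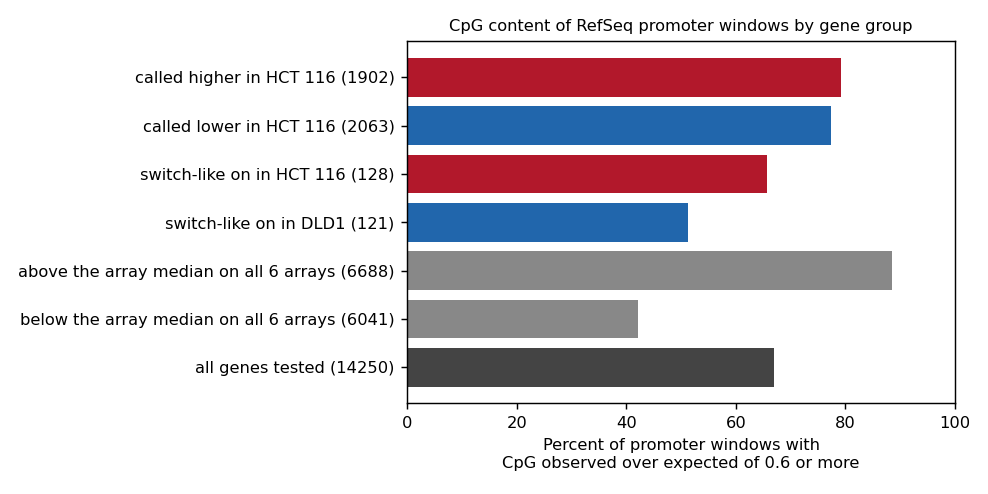
Percent of RefSeq promoter windows (horizontal axis) with a CpG content of at least 0.6 of that expected, by gene group, with the number of windows in brackets. Bars reach 65.6% for switch-like genes on in HCT 116 and 51.2% for those on in DLD1, between the 88.6% of genes above the array median on all 6 arrays and the 42.1% of genes below it on all 6.

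Genes of epithelial adhesion were mostly lower in HCT 116. Of 36 measured members of the list of adhesion and splicing genes, 24 were called lower and 3 higher (75.0% called, against 27.6% of all genes), with a median difference of −0.912. The bar plot of all lists shows this list with the longest bar to the left. CDH1, which encodes E-cadherin, read 9.77, 9.30 and 9.89 in HCT 116, against 13.93, 13.55 and 13.70 in DLD1 (−4.08, SE 0.23, limma adjusted p = 2.69e-09). CDH17, the liver-intestine cadherin, read 3.59, 3.79 and 4.41 in HCT 116, against 12.45, 12.89 and 12.60 in DLD1 (−8.72). Neither gene's groups overlapped, and CDH1 stayed above the array median in HCT 116 while CDH17 did not. PERP, a desmosome protein, was also lower (−4.09). ESRP1, the splicing factor that sets epithelial exon choice, went against its list: it read 14.55, 14.37 and 14.55 in HCT 116, against 9.69, 10.58 and 10.03 in DLD1 (4.39, SE 0.28, limma adjusted p = 9.85e-09).

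**Figure D3:**
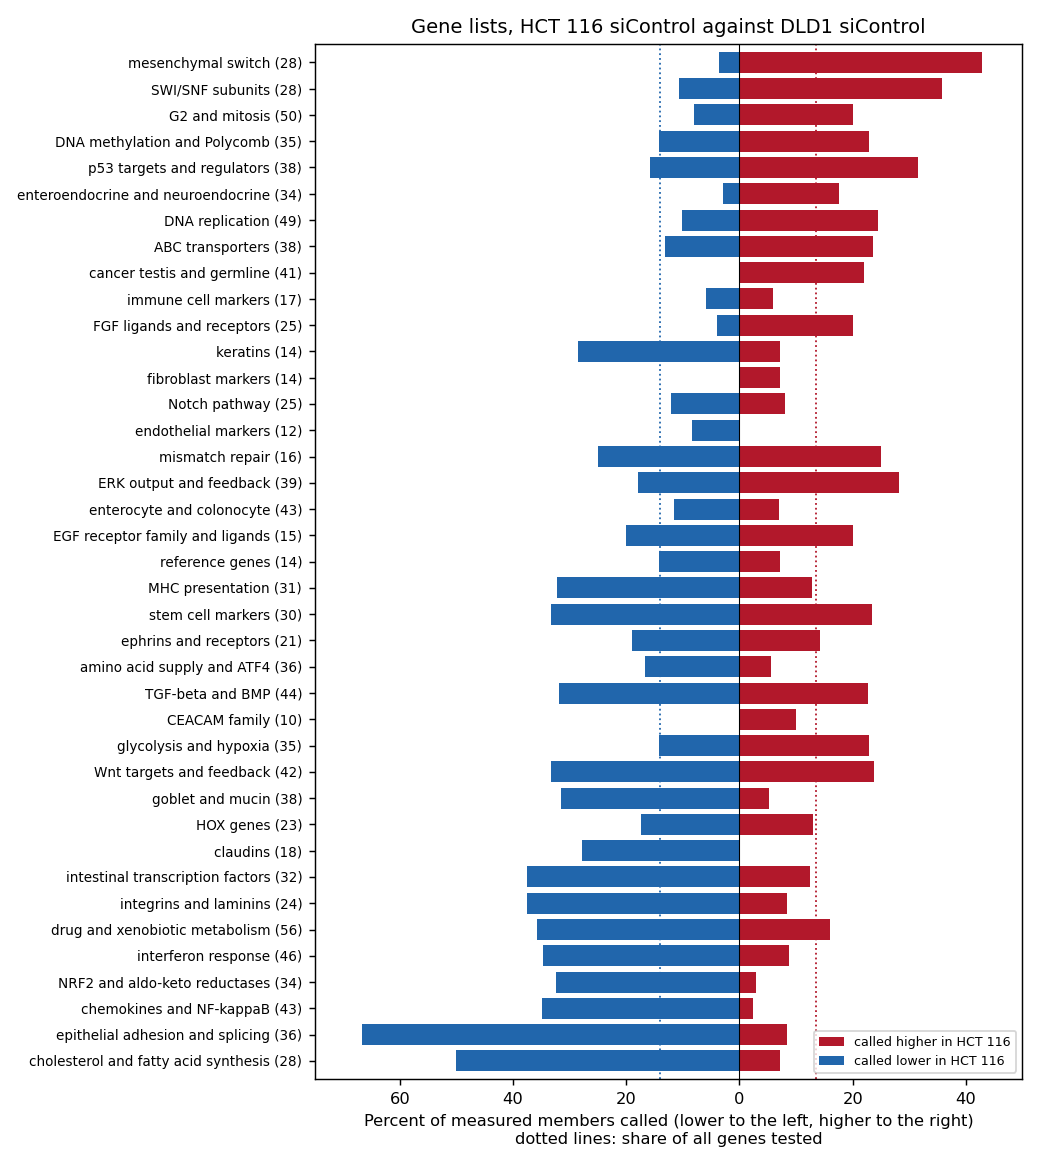
Percent of the measured members of each gene list (number in brackets) called higher in HCT 116 (red, to the right) or lower in HCT 116 (blue, to the left), ordered by median difference from the top down. Dotted lines mark 13.6% and 14%, the shares of all genes; epithelial adhesion and cholesterol synthesis, at the bottom, have the lowest medians.

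Tight junction claudins followed. The share called, 27.8% of 18, was that of all genes (27.6%). None was higher by limma (0 also at an unadjusted p under 0.05), and 5 were lower (CLDN2, CLDN1, CLDN4, CLDN3 and CLDN7), 3 of them without DLD1 siControl replicate 2, with 12 of the 18 below the median on all 6 arrays. CLDN2, which forms a cation pore, read 4.96, 5.44 and 5.73 in HCT 116, against 11.34, 11.84 and 11.17 in DLD1 (−6.07, SE 0.41). CLDN1, a sealing claudin, read 3.56, 3.75 and 3.34 in HCT 116, against 9.53, 9.72 and 9.51 in DLD1 (−6.04, SE 0.26). The lines did not overlap in either, and both genes were on in DLD1. CLDN3 differed by −0.91, and by −0.78 (limma adjusted p = 0.0758) without that DLD1 array and −0.69 (limma adjusted p = 0.0879) without HCT 116 siControl replicate 1.

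Keratins split by member, with a list median of 0.074. Of 14, KRT23 was higher and 4 were lower (KRT80, KRT18, KRT8 and KRTAP3-1, the last a keratin-associated protein). The share called was 35.7%, against 27.6% of all genes. KRT23, an acidic keratin, read 9.49, 10.27 and 10.31 in HCT 116, against 3.97, 4.04 and 4.09 in DLD1 (5.99, SE 0.27). KRT80 was on the other side at −3.26, and KRT18, the usual keratin of simple epithelia, at −1.40. Among 24 integrins and laminins, 9 were lower and 2 higher (45.8% called, median −0.24). The lower ones were led by the laminin chain LAMB1 (−3.66) and the integrin chains ITGB8 (−2.77) and ITGB6 (−2.59).

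Genes of the mesenchymal programme moved the other way. Of 28 measured, 12 were higher in HCT 116 and 1 was lower (46.4% called, median 0.404), with 17 below the median on all 6 arrays. MSN, the actin linker moesin, read 13.22, 13.45 and 13.25 in HCT 116, against 6.28, 6.53 and 6.82 in DLD1 (6.76, SE 0.27, limma adjusted p = 4.35e-11). ZEB1, a repressor of CDH1, read 8.79, 8.13 and 7.87 in HCT 116, against 4.70, 5.71 and 5.42 in DLD1 (2.99, SE 0.30, limma adjusted p = 1.85e-06). The groups were apart in both genes, and ZEB1 was below the array median on every DLD1 array. CAV1, the coat protein of caveolae (3.48), and the receptor kinase gene AXL (3.15) were higher as well. VIM, the mesenchymal intermediate filament, read 5.19, 4.59 and 4.54 in HCT 116, against 4.48, 4.58 and 4.43 in DLD1, low in both lines and with no difference that passed (0.28, SE 0.24, limma adjusted p = 0.459).

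**Figure D4:**
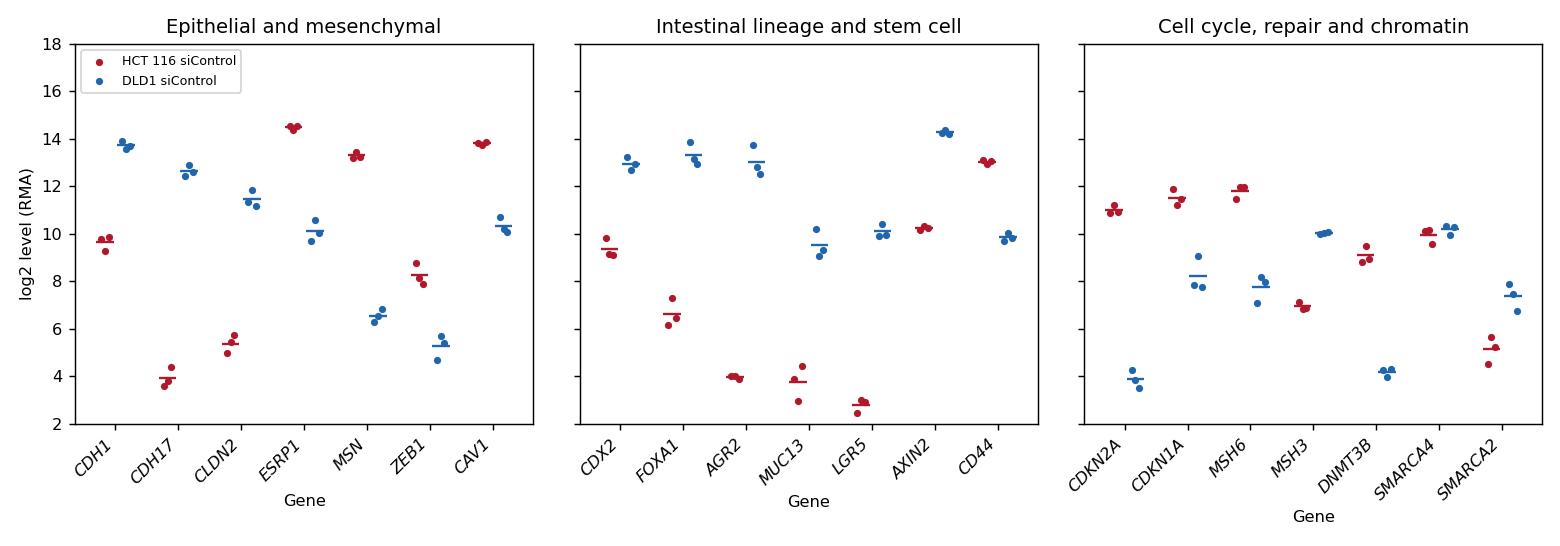
Log2 level (vertical axis) of named genes on each HCT 116 siControl array (red, left) and DLD1 siControl array (blue, right), with a bar at the mean of 3 arrays. The lines do not overlap for any gene shown but SMARCA4; CDH1 and CDX2 are lower in HCT 116 yet well above background, whereas CDH17, AGR2 and LGR5 are near the bottom of the scale there.

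Transcription factors of the intestine that were called were mostly lower in HCT 116. Of 32 measured, 12 were lower and 4 higher (50% called, against 27.6% of all genes, median −0.184), with 15 below the median on all 6 arrays. CDX2, the homeobox factor that sets intestinal identity, read 9.84, 9.16 and 9.09 in HCT 116, against 13.22, 12.68 and 12.94 in DLD1 (−3.59, SE 0.22, limma adjusted p = 6.34e-09). FOXA1, a pioneer factor of endoderm, read 6.16, 7.29 and 6.45 in HCT 116, against 13.86, 13.13 and 12.93 in DLD1 (−6.67, SE 0.31, limma adjusted p = 2.22e-10). The lines were apart in both, by more for FOXA1. GATA6, an endoderm factor of the crypt, differed by −3.65, while PPARG, a nuclear receptor of colonocytes and fat cells, was higher by 2.74. CDX1, the close relative of CDX2, did not differ detectably (−0.05, limma adjusted p = 0.88) and lay well below the median in both lines.

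Goblet cell and mucin genes had 12 lower and 2 higher of 38 (36.8% called, against 27.6% of all genes, median −0.143). Of the 38, 27 were below the median on every array. The higher count was 1 in 9 of the 12 fits that left out a single array. AGR2, the disulfide isomerase that folds mucins, read 3.99, 4.03 and 3.86 in HCT 116, against 13.75, 12.83 and 12.52 in DLD1 (−9.07, SE 0.36, limma adjusted p = 4.01e-11). MUC13, a membrane mucin, read 3.88, 2.97 and 4.44 in HCT 116, against 10.19, 9.05 and 9.31 in DLD1 (−5.75, SE 0.50, limma adjusted p = 3.94e-07). Both were near background in HCT 116. GALNT3, which starts O-glycans, was lower by 3.02 on the log2 scale, and the membrane mucin gene MUC3A was higher by 2.65. Among 43 enterocyte genes, 34 were below the median on all 6 arrays, 3 were called higher and 5 lower (18.6% called, below the share of all genes). The lower count was 3 without DLD1 siControl replicate 1 or without HCT 116 siControl replicate 3. TSPAN8, a tetraspanin of gut epithelium, read 4.55, 3.55 and 3.70 in HCT 116, against 11.02, 11.43 and 11.24 in DLD1 (−7.29, SE 0.24), and the peptidase gene DPP4 was higher by 2.05.

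Enteroendocrine and neuroendocrine genes were mostly below the array median too, 29 of 34 on all 6 arrays, with 6 higher and 1 lower in HCT 116 (20.6% called, below the 27.6% of all genes). SYT1, the calcium sensor of vesicle release, read 10.58, 11.53 and 11.69 in HCT 116, against 3.56, 3.63 and 3.46 in DLD1 (7.72, SE 0.26, limma adjusted p = 6.66e-12). SCG2, a secretogranin of dense-core granules, was higher by 3.99 and the prohormone-processing gene CPE by 2.62, while the single lower gene was SCG5 (−1.36). Of 10 CEACAM genes, which encode surface glycoproteins of the colon, all lay below the median on every array. CEACAM1 alone was called (0.79, limma adjusted p = 0.0498). It missed the threshold without each of 8 single arrays, with 0.45 (limma adjusted p = 0.248) without HCT 116 siControl replicate 2. The call was also lost with the 6 control arrays alone (limma adjusted p = 0.0622), after quantile normalization (0.0937) and with centred arrays (0.0652). By limma 2 members were lower at an unadjusted p under 0.05, and 1 was called lower without DLD1 siControl replicate 1.

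Stem cell markers differed in both directions, 10 lower and 7 higher of 30 (56.7% called, median −0.063). LGR5, the R-spondin receptor of crypt base stem cells, read 2.45, 3.0 and 2.91 in HCT 116, against 9.92, 10.42 and 9.97 in DLD1 (−7.32, SE 0.26, limma adjusted p = 1.14e-11). CD44, the hyaluronan receptor, ran the other way at 13.10, 12.94 and 13.06 in HCT 116, against 9.71, 10.03 and 9.82 in DLD1 (3.19, SE 0.18, limma adjusted p = 3.03e-09). So LGR5 was near background in HCT 116 and CD44 was high in both lines, but higher in HCT 116. MSI1, an RNA-binding protein of progenitors, read 8.65, 8.29 and 8.20 in HCT 116, against 4.16, 4.26 and 3.73 in DLD1 (4.33, SE 0.21), and CD24, a surface glycoprotein, differed by −3.66.

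Wnt targets and feedback genes had 14 lower and 10 higher of 42 (57.1% called, median −0.131). Among the feedback genes, AXIN2, a scaffold of the complex that destroys beta-catenin, read 10.16, 10.32 and 10.23 in HCT 116, against 14.26, 14.36 and 14.20 in DLD1 (−4.04, SE 0.16, limma adjusted p = 4.76e-11). DKK1, a secreted Wnt inhibitor, read 11.91, 11.69 and 11.76 in HCT 116, against 3.13, 4.34 and 3.41 in DLD1 (8.16, SE 0.33, limma adjusted p = 4.35e-11). The 2 feedback genes thus differed in opposite directions, with no overlap in either. LEF1, a transcription factor that binds beta-catenin, read 7.30, 6.75 and 5.98 in HCT 116, against 11.69, 12.47 and 11.80 in DLD1 (−5.31, SE 0.34), and TNFRSF19, a Wnt target receptor, differed by −4.74. MYC, a target that drives growth, was high in both lines and higher in HCT 116 (1.05, SE 0.18, limma adjusted p = 0.00033). The upstream genes differed less. CTNNB1, which encodes beta-catenin, differed by −0.08 (SE 0.21, limma adjusted p = 0.839). APC read 11, 10.71 and 10.41 in HCT 116, against 11.09, 11.42 and 11.53 in DLD1, lower on every HCT 116 array but short of the threshold (−0.64, SE 0.25, limma adjusted p = 0.0752). Without HCT 116 siControl replicate 1 it passed (−0.79, limma adjusted p = 0.0497).

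Growth factor pathways also differed member by member. Of 39 genes of ERK output and feedback, 11 were higher and 7 lower (46.2% called, median 0.053), and the lower count was 4 without DLD1 siControl replicate 1. DUSP4, a phosphatase that switches ERK off, read 11.32, 11.63 and 11.67 in HCT 116, against 6.24, 6.49 and 6.41 in DLD1 (5.16, SE 0.19, limma adjusted p = 1.57e-11). Of the Sprouty inhibitors of receptor signalling, SPRY4 was higher (3.31) and SPRY1 lower (−2.73), and the ETS factor gene ETV1 was higher (2.47). In the EGF receptor family and its ligands, 3 of 15 were higher and 3 lower, a called share above the 27.6% of all genes. Of the 15, 6 lay below the array median on all 6 arrays. ERBB3, a receptor for neuregulins, was lower (−2.41), and so was the ligand gene TGFA (−1.70), while the ligand gene NRG4 (2.21) and the receptor inhibitor gene LRIG1 (3.01) were higher. EGFR itself had −0.46 (SE 0.24, limma adjusted p = 0.196).

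Among 25 FGF ligands and receptors, 5 were higher and 1 lower (24.0% called, below the 27.6% of all genes). FGF19, a hormone-like ligand of the gut and liver, read 10.50, 10.26 and 10.14 in HCT 116, against 4.28, 5.10 and 4.32 in DLD1 (5.74, SE 0.28, limma adjusted p = 4.4e-10). The ligand gene FGF9 (2.88) and the receptor gene FGFR2 (1.86) were higher too, and FGFBP1, which carries FGF ligands, was the single lower gene (−3.27). In the TGF-beta and BMP list, 14 of 44 were lower and 10 higher (54.5% called, median −0.083). TGFBI, a TGF-beta-induced matrix protein, had the lowest difference (−8.23), with the BMP receptor gene BMPR1B at −3.73 and the distant family member GDF15 at −3.20. LTBP4, which binds latent TGF-beta, read 7.61, 8.82 and 8.28 in HCT 116, against 4.11, 3.97 and 3.58 in DLD1 (4.35, SE 0.37). Notch genes had a called share of 20%, below that of all genes, with the coactivator gene MAML2 (−1.96) and the ligand gene JAG1 (−1.93) lower. Ephrins, which are ligands for Eph receptors on neighbouring cells, split between EFNA5 (−5.38) and EFNA1 (−1.91), both lower, and EFNA3 (2.43) and EFNA2 (2.13), both higher.

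Targets and regulators of p53, the tumour suppressor that halts damaged cells, had 12 higher and 6 lower of 38 (47.4% called, median 0.21). CDKN1A, the p53 target that blocks cyclin-dependent kinases, read 11.87, 11.21 and 11.47 in HCT 116, against 7.85, 9.05 and 7.77 in DLD1 (3.29, SE 0.43, limma adjusted p = 2.45e-05). TP53INP1, a stress protein, read 7.55, 7.55 and 8.07 in HCT 116, against 3.57, 4.02 and 3.43 in DLD1 (4.05, SE 0.27). Both were higher on every HCT 116 array. CDKN2A, which encodes the inhibitor p16 and the p53 regulator ARF, was on in HCT 116 alone at 10.86, 11.20 and 10.91, against 4.26, 3.83 and 3.52 in DLD1 (7.12, SE 0.22, limma adjusted p = 2.91e-12). The arrays' gene-level value does not tell these 2 products apart. Other members were lower in HCT 116, among them PERP (−4.09) and GDF15 (−3.20), which stand in other lists as well.

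Mismatch repair genes, 16 measured, had 4 higher and 4 lower (50% called). MSH6, a subunit of the complex that reads single mismatches, read 11.45, 11.98 and 11.99 in HCT 116, against 7.08, 8.20 and 7.98 in DLD1 (4.05, SE 0.28, limma adjusted p = 2.18e-08). MSH3, the subunit for longer loops, ran the other way at 7.13, 6.85 and 6.86 in HCT 116, against 9.97, 10.05 and 10.09 in DLD1 (−3.09, SE 0.23, limma adjusted p = 5.76e-08). The lines were apart in both genes, and MSH3 lay close to the array median in HCT 116, above it on 1 of 3 arrays. Smaller differences were those of the ligase gene LIG1 (−1.35), the polymerase gene POLE (1.34), MLH3 (−0.95), PMS1 (0.80), PMS2 (0.71) and the meiotic gene MSH4 (−1.37). The higher count was 1 without DLD1 siControl replicate 1 or without HCT 116 siControl replicate 2, when POLE, PMS1 and PMS2 missed the threshold. POLE also missed it without HCT 116 siControl replicate 1 (0.96, limma adjusted p = 0.106), and PMS2 without DLD1 siControl replicate 3 (0.65, limma adjusted p = 0.0676) or HCT 116 siControl replicate 3 (0.69, limma adjusted p = 0.0515). MSH4 missed it without 8 single arrays, with −0.74 (limma adjusted p = 0.241) without DLD1 siControl replicate 2.

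Lists of cell division genes had small median differences, although single members differed by up to 2.13. Of 49 DNA replication genes, 12 were higher and 5 lower (34.7% called, median 0.166), led by POLE2, a subunit of the leading-strand polymerase (2.13), and the licensing factor gene CDT1 (1.84). Of 50 genes of G2 and mitosis, all above the array median on every array, 10 were higher and 4 lower (28.0% called, close to the 27.6% of all genes). The higher count was 6 without DLD1 siControl replicate 1, without HCT 116 siControl replicate 2 or without HCT 116 siControl replicate 3. The kinesin gene KIF14 (1.36) and the kinetochore gene NDC80 (1.28) had the most positive values.

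Among DNA methylation and Polycomb genes, DNMT3B was switch-like. DNMT3B, a methyltransferase that sets new DNA methylation, read 8.81, 9.50 and 8.95 in HCT 116, against 4.25, 3.96 and 4.29 in DLD1 (4.92, SE 0.22, limma adjusted p = 1.99e-10). Its relative DNMT3A read 7.09, 7.11 and 6.85 in HCT 116, against 9.31, 8.87 and 9.31 in DLD1 (−2.14, SE 0.27, limma adjusted p = 2.05e-05). The 2 genes for the same activity were thus high in opposite lines. TET1, which oxidises methylated cytosine, was higher (1.69), and PHF19, a Polycomb accessory protein, lower (−1.53). Their list had 8 higher and 5 lower of 35 (37.1% called, against 27.6% of all genes). Among 28 SWI/SNF subunits, 10 were higher and 3 lower (46.4% called, median 0.27). SMARCD3, the subunit of heart and muscle complexes, was higher (2.11), as were the neural subunit gene DPF1 (1.32) and BICRAL (1.28).

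HOX genes, which record position along the body axis, had 17 of 23 below the median on all 6 arrays. HOXB9 read 8.48, 8.49 and 9.07 in HCT 116, against 12.01, 12.29 and 12.12 in DLD1 (−3.46, SE 0.22), and its cluster neighbours HOXB6 (−3.22) and HOXB5 (−1.08) were lower as well. HOXC9 read 8.56, 8.50 and 8.66 in HCT 116, against 4.99, 5.24 and 5.40 in DLD1 (3.36, SE 0.18), and HOXC13 was higher too (2.04). Called B cluster genes were thus lower in HCT 116 and called C cluster genes higher, while the D cluster gave HOXD8 at 1.38 and HOXD13 at −0.99.

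Cancer testis genes, normally kept to the germline, were called in HCT 116 only in the upward direction. Of 41 measured, 9 were higher and none lower, with 30 below the median on all 6 arrays. The share called, 22.0%, was below the 27.6% of all genes, of which 13.6% were called higher. By limma 2 were lower at an unadjusted p under 0.05, and 1 was called lower without DLD1 siControl replicate 3, without HCT 116 siControl replicate 2 or without HCT 116 siBRG1 replicate 1. Beside GTSF1 and MAGEB2, MAGEA2 read 12.52, 12.81 and 12.68 in HCT 116, against 6.93, 7.08 and 7.0 in DLD1 (5.67, SE 0.20, limma adjusted p = 1.41e-11). MAGEA3 read 10.83, 11.66 and 11.74 in HCT 116, against 6.41, 5.43 and 5.84 in DLD1 (5.52, SE 0.28). The MAGE-A genes are similar in sequence and their probes may share signal, so they are not separate observations.

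Interferon response genes were called lower in HCT 116 more often than higher. Of 46 measured, 16 were lower and 4 higher (43.5% called, median −0.382), with 23 below the median on all 6 arrays. OAS1, a sensor of double-stranded RNA, read 3.92, 4.35 and 3.69 in HCT 116, against 10.13, 9.96 and 10.05 in DLD1 (−6.06, SE 0.24, limma adjusted p = 4.76e-11), near background in HCT 116. PARP14 (−2.81) and PARP9 (−2.33), ADP-ribosyltransferases induced by interferon, and the RNA sensor gene IFIH1 (−2.05) were lower. Of 31 genes of MHC presentation, 10 were lower and 4 higher (45.2% called, median −0.005). ERAP2, which trims peptides for MHC class I, read 5.96, 5.30 and 5.23 in HCT 116, against 11.20, 11.45 and 11.24 in DLD1 (−5.80, SE 0.22). PSMB8, a subunit of the immunoproteasome, read 5.25, 4.36 and 5.16 in HCT 116, against 10.76, 10.30 and 10.44 in DLD1 (−5.58, SE 0.28). B2M, the light chain of MHC class I, differed the other way at 12.23, 13.67 and 13.62 in HCT 116, against 11.50, 11.84 and 11.23 in DLD1 (1.65, SE 0.35, limma adjusted p = 0.00215).

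Chemokines and genes of the NF-kappaB pathway had 15 lower and 1 higher of 43 (37.2% called, median −0.491). Beside CXCL5, the protease inhibitor gene SLPI (−4.60), the interleukin 1 receptor antagonist gene IL1RN (−4.15) and the mucosal chemokine gene CCL28 (−4.15) were lower in HCT 116. The single higher gene was TNFAIP2 (3.25), a TNF-induced gene that was named after its value was seen, and without HCT 116 siControl replicate 2 the higher count was 3. SLPI read 4.86, 4.52 and 5.47 in HCT 116, against 10.16, 9.59 and 8.91 in DLD1, so it was on in DLD1 alone.

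Detoxification genes were lower in HCT 116 more often than higher. Of 34 NRF2 target and aldo-keto reductase genes, 11 were lower and ABCC2 alone was higher (35.3% called, median −0.419). Without DLD1 siControl replicate 2 the median was −0.025 and 2 were higher, and without DLD1 siControl replicate 3 the median was −0.767. CBR1 (−8.04), the plasma glutathione peroxidase gene GPX3 (−4.19) and the steroid reductase gene AKR1C3 (−2.86) led the lower ones. Of 56 genes of drug metabolism, 20 were lower and 9 higher (51.8% called). GSTM3, a mu class glutathione transferase, read 4.66, 4.74 and 4.13 in HCT 116, against 12.92, 12.66 and 12.65 in DLD1 (−8.24, SE 0.28, limma adjusted p = 9.32e-12). The aldehyde dehydrogenase gene ALDH3A1 (−6.63) and the arachidonic acid epoxygenase gene CYP2J2 (−5.67) were lower, and CYP24A1, which inactivates vitamin D, was higher at 11.35, 11.02 and 11.04 in HCT 116, against 5.09, 6.23 and 6.25 in DLD1 (5.28, SE 0.38). Of 38 ABC transporters, 9 were higher and 5 lower (36.8% called, against 27.6% of all genes). The higher count was 4 without DLD1 siControl replicate 1 or without HCT 116 siControl replicate 2. ABCB6, a mitochondrial porphyrin transporter, was higher (2.61), and the multidrug pump gene ABCB1 was lower (−1.75).

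Genes of cholesterol and fatty acid synthesis had the lowest median of the 39 lists, −1.109. Without HCT 116 siControl replicate 1 it was −0.774, above the −0.829 of epithelial adhesion in that setting. Of 28 measured, 14 were lower and 2 higher (57.1% called). HMGCS1, which makes HMG-CoA for the mevalonate pathway, read 10.88, 11.31 and 11.65 in HCT 116, against 14.35, 13.95 and 13.05 in DLD1 (−2.50, SE 0.43, limma adjusted p = 0.000374). The sterol enzyme genes HSD17B7 (−2.21) and SC5D (−2.11) were lower. The lower count was 8 without DLD1 siControl replicate 1, and HSD17B7 missed the threshold without HCT 116 siControl replicate 1 (−1.61, limma adjusted p = 0.0632) or DLD1 siControl replicate 2 (−1.95, limma adjusted p = 0.0502). ELOVL5, which elongates polyunsaturated fatty acids, ran against the list at 13.09, 12.98 and 13.32 in HCT 116, against 6.79, 5.96 and 6.02 in DLD1 (6.87, SE 0.25, limma adjusted p = 1.47e-11).

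Glucose and amino acid genes had list medians near 0, with large differences in both directions. SLC2A3, a high-affinity glucose transporter, read 6.35, 6.15 and 7.29 in HCT 116, against 12.79, 12.75 and 13.59 in DLD1 (−6.45, SE 0.29, limma adjusted p = 2.21e-10). BNIP3, a hypoxia-induced mitophagy receptor, read 10.10, 10.95 and 11.75 in HCT 116, against 7.17, 6.61 and 6.67 in DLD1 (4.11, SE 0.40), and the aldolase gene ALDOC was higher by 3.92. The glycolysis and hypoxia list had 8 higher and 5 lower of 35 (37.1% called), but 4 higher without DLD1 siControl replicate 3, and 4 higher and 8 lower without HCT 116 siControl replicate 3. STC2, a stress-induced glycoprotein, read 10.93, 10.62 and 11.12 in HCT 116, against 5.22, 5.63 and 5.50 in DLD1 (5.44, SE 0.20). SLC1A4, a transporter of serine and alanine, read 5.58, 6.66 and 6.59 in HCT 116, against 10.53, 11.15 and 10.08 in DLD1 (−4.31, SE 0.41). These 2 stand in the list of amino acid supply, which had 2 higher and 6 lower of 36 (22.2% called, below the 27.6% of all genes), and 3 lower without DLD1 siControl replicate 2.

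Among 14 reference genes of the kind used to scale RNA measurements, 1 was called higher and 2 lower. The share called, 21.4%, was close to the 27.6% of all genes for so few members. All 14 were above the array median on every array, with a median difference of 0.011. B2M was called higher (1.65), and GUSB, a lysosomal glucuronidase (−1.26), and ACTB, beta-actin (−0.81), lower. ACTB missed the threshold without HCT 116 siControl replicate 1 (−0.59, limma adjusted p = 0.0529).

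The 6 siBRG1 arrays gave a second measurement of the line difference that shares no array with the first, although the fit shares each gene's variance between them. HCT 116 siBRG1 differed from DLD1 siBRG1 in 5451 genes (30.8% of all genes), 2485 higher and 2966 lower. The balance depended on scaling, with 2768 higher and 2713 lower after a further quantile normalization. Of the 4884 genes called between the control lines, 3812 (78.1%) were called in the same direction here, which is 69.9% of the siBRG1 calls, and 7 (0.143% of the siControl calls and 0.128% of the siBRG1 calls) in the opposite direction. All 331 switch-like genes were called in the same direction again, as were 984 (99.0%) of the 994 genes with a difference of at least 2 log2 units. In the plot of the 2 line differences these genes lie along the diagonal.

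GTSF1 differed by 10.76, DMKN by 10.56, TM4SF1 by −12.58 and CXCL5 by −10.06 in the siBRG1 arrays, against 11.42, 9.70, −12.46 and −11.11 in the siControl arrays. MSH6 differed by 3.52, MSH3 by −3.33 and CDKN2A by 7.86, against 4.05, −3.09 and 7.12 in the siControl arrays. LGR5 differed by −5.76, against −7.32. The epithelial adhesion list had a median of −1.231 there, against −0.912 in the control lines, and cholesterol synthesis −1.238, against −1.109. The p53 list had a median of 1.2 in the siBRG1 arrays, against 0.21 in the siControl arrays, and CDKN1A differed by 5.95, against 3.29. The change of the line difference between the siBRG1 and the siControl arrays passed its own limma test in 59 genes (0.334% of all genes).

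**Figure D5:**
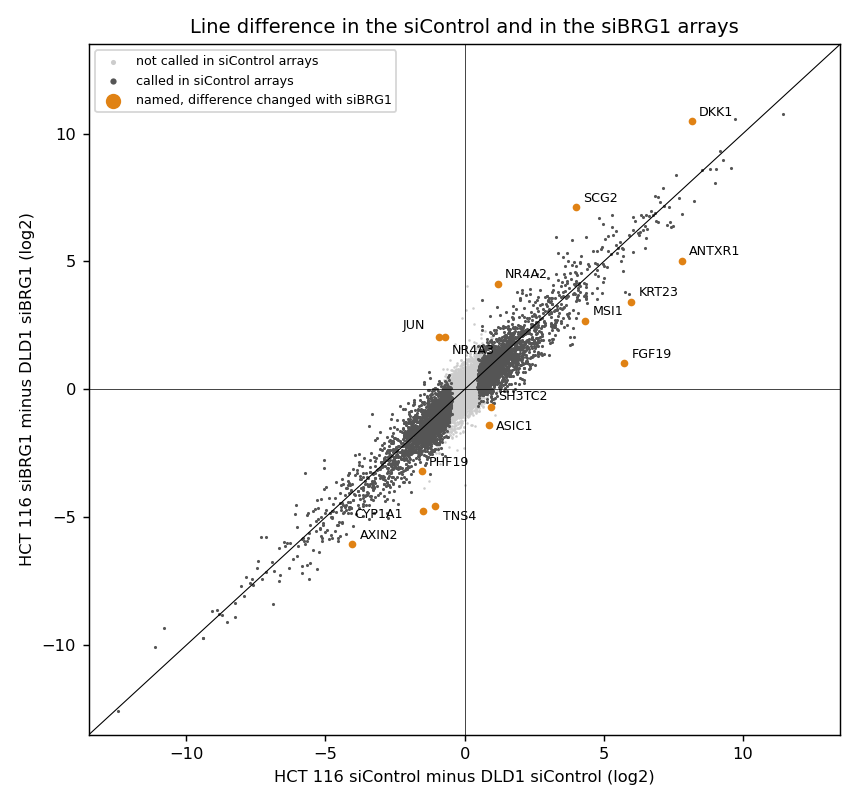
Difference HCT 116 minus DLD1 (log2) of each gene in the siBRG1 arrays (vertical axis) and in the siControl arrays (horizontal axis), with the line of equal difference. Dark points are the 4884 genes called in the siControl arrays, and orange points are named genes whose line difference changed with siBRG1, such as FGF19 (1.03 in siBRG1, 5.74 in siControl) and DKK1 (10.48 in siBRG1, 8.16 in siControl).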

How the data were processed

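RNA of 12 samples was measured on 1-colour Affymetrix arrays, biotin-labelled per the labels' protocols. Log2 values were deposited; the submitters' processing notes name RMA and Affymetrix Power Tools, so the authors made them by RMA. RMA corrects background, brings all arrays to a common intensity distribution and combines probes per feature. Each array has 94 to 112 values over 16, more than a 16-bit scanner can record, so an unnamed step also shaped the scale. The sources used here give no genome build and no array batches. Of 21448 features, 17709 had 1 symbol and 3739 none; for 20 genes with several features the brightest was taken. Columns of other samples numbered 0.

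The limma 3.58.1 fit (R 4.3.3) had 4 group means over 12 arrays, with eBayes (8 residual and 6.66 prior degrees of freedom). Benjamini-Hochberg adjustment ran over 17687 genes per contrast. A gene was called at an adjusted p under 0.05. The contrasts were HCT 116 minus DLD1 in siControl, the same in siBRG1, and their difference. SMARCA4 and SMARCA2 also had an exact permutation test (scipy 1.17.1).

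The genes and the 39 lists (1274 genes, 1141 measured, 58 in more than 1 list) were chosen with earlier results of these data known. Named genes are SMARCA4 and SMARCA2, a fixed set of colorectal cancer genes, the 15 largest non-overlapping differences each way, up to 4 called members per list with the largest difference, called MSH, MLH, PMS, CEACAM and HOX genes, the 6 longest runs of neighbouring called genes, up to 6 genes with the largest change with siBRG1 and up to 5 with opposite calls. Some fixed genes are not analysed here. Marker genes of cell types, members named to complete a count of 5 or fewer and genes at the threshold stand outside that rule. Promoter windows are from RefSeq (GRCh38.p14).

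On simulated arrays with the real genes and spread, 50 genes were changed by each amount in the siControl contrast. Of genes changed by 0.5 log2 units 4% were called, rising to 44% for 1, 96% for 2 and 98% for 3 units. Of 17487 unchanged genes 5 were called. Only 200 genes were changed there, while 4884 were called in the data, so the Benjamini-Hochberg cutoff was stricter in the simulation. These rates therefore check the procedure and do not give the power or the error rate of the real comparison.

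Alternatives were other scalings, level filters, priors, array weights, stricter thresholds, the 6 control arrays alone, a replicate block and each array left out.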

Additional observations from a re-analysis of the deposited data

Results flagged for a closer look

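For 15 named genes the difference between the lines itself changed between the siBRG1 and the siControl arrays, by limma's test of that change (adjusted p under 0.05 over all genes). Over all genes, 59 passed (0.334%). Up to 6 of the named genes were chosen through this same test and up to 5 for opposite calls. The number 15 therefore follows in part from the choice of genes. The comparison shares the siControl arrays with the differences reported above, so the values are given side by side. FGF19 had the largest change among them: HCT 116 exceeded DLD1 by 1.03 in the siBRG1 arrays and by 5.74 in the siControl arrays, a change of −4.70 (SE 0.39, limma adjusted p = 5.24e-05). It read 6.67, 5.97 and 5.51 in HCT 116 siBRG1, against 5.19, 4.88 and 5.0 in DLD1 siBRG1.

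The difference widened for AXIN2 (change −2.01), the granule protein gene SCG2 (3.13) and, near the threshold, DKK1 (2.31, limma adjusted p = 0.048). It also widened for PHF19 (−1.68), the focal adhesion protein gene TNS4 (−3.50), the xenobiotic oxidase gene CYP1A1 (−3.27) and the nuclear receptor gene NR4A2 (2.93). It narrowed for ANTXR1 (−2.78, limma adjusted p = 0.039), KRT23 (−2.57, 0.00777) and MSI1 (−1.64, 0.0326). Of these, the siControl difference of TNS4, CYP1A1 and NR4A2 missed the threshold without some single arrays: TNS4 without DLD1 siControl replicate 1 (−0.94, limma adjusted p = 0.0671), replicate 2 (−0.94, 0.0671) or HCT 116 siControl replicate 2 (−1.03, 0.0501), CYP1A1 without DLD1 siControl replicate 1 (−1.09, 0.116) or HCT 116 siControl replicate 3 (−1.34, 0.0765), and NR4A2 without DLD1 siControl replicate 3 (1.09, 0.0564) or HCT 116 siControl replicate 3 (0.91, 0.0754).

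In 4 genes the difference had opposite signs. JUN, an AP-1 protein, differed by 2.06 in the siBRG1 arrays and by −0.93 in the siControl arrays (change 2.99). NR4A3, an immediate early nuclear receptor, differed by 2.04 in siBRG1 and −0.72 in siControl (change 2.75). SH3TC2, a protein of endosome recycling, differed by −0.68 in siBRG1 and 0.96 in siControl (change −1.64), and the acid-sensing channel gene ASIC1 by −1.39 in siBRG1 and 0.88 in siControl (change −2.27). The siControl call of JUN was lost without each of 4 single arrays (−0.71 to −0.97, limma adjusted p 0.0617 to 0.143), that of NR4A3 without 4 (−0.63 to −0.70, 0.0503 to 0.0697) and that of ASIC1 without 3 (0.72 to 0.83, 0.0511 to 0.0696). TIGAR, which lowers glycolytic flux, was also called with opposite signs (0.55 in siBRG1, −0.57 in siControl), but the change missed the threshold (limma adjusted p = 0.1). Its siControl call was lost without each of 5 single arrays.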

How the results depend on the processing

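The number of arrays limits these results, and values below the array median carry the least information. Of 226 named genes, 220 were called, against 27.6% of all genes. That share follows from the naming rules, most of which took only called genes. Of the 220 called, 35 missed the threshold without some single array, 82 under a stricter threshold and 12 under another alternative, and no direction reversed. Such counts describe genes picked mostly for being called and do not stand for all called genes. APC, not called, passed with centred arrays (−0.69, limma adjusted p = 0.0437), with array weights (−0.74, 0.0162) and without DLD1 siBRG1 replicate 1 (−0.64, 0.0324).

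The 4884 calls between the control lines became 1994 at a minimum change of 1.5-fold and 1168 at 2-fold, and ranged from 4135 to 4956 without single arrays. With the 6 control arrays alone the count was 4558, and it was 4794 with centred arrays (2147 higher and 2647 lower), 4896 after quantile normalization (2471 and 2425), 5584 with array weights (2826 and 2758) and 4394 without HCT 116 siControl replicate 1 (2203 and 2191), so which direction had more calls depended on the setting. With centred arrays there were 5430 siBRG1 calls, 2695 higher and 2735 lower. The 5451 siBRG1 calls became 2285 and 1335, and 4642 to 5663 without single arrays; the 3812 shared calls became 1597 and 947, and 3387 to 3603 without single arrays. The 331 switch-like genes were 175 among genes at or above the median level, and 331 to 348 without single arrays. The 59 changes with siBRG1 became 162 with array weights, 16 at an adjusted p under 0.01, 8 at 1.5-fold and 3 at 2-fold, and 26 to 71 without single arrays, lowest without DLD1 siControl replicate 3 and without HCT 116 siBRG1 replicate 3. Their split was 28 higher and 31 lower, but 40 and 19 with centred arrays. The cause of these shifts was not tested beyond what stricter thresholds and fewer genes do by construction. SMARCA4 had −0.35 to −0.05 and SMARCA2 −2.53 to −1.90 without single arrays. Of 818 list medians recomputed over 24 settings, 36 moved by more than the spread of the arrays; without single arrays the p53 median ran from 0.097 to 0.328.

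Deviations of same-numbered siControl arrays of the 2 lines correlated at −0.037, 0.01 and −0.077, so no strong shared deviation was seen. This cannot exclude that same-numbered samples were handled together, and siControl arrays were not compared with siBRG1 arrays in this way. With the replicate block 5066 genes were called between the control lines. The CEACAM list and SMARCA2 had no value under the median-level filter, and the change with siBRG1 had none with the 6 control arrays alone.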

Other observations

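Called genes also lay side by side in the genome. Among 17665 genes placed in RefSeq order there were 184 runs of at least 3 neighbouring genes called in the same direction, 84 higher and 100 lower in HCT 116, holding 668 genes. No chance level was computed for these runs. A run of 8 lower genes took in the mu class glutathione transferases GSTM4 (−4.09), GSTM2 (−3.27), GSTM1 (−2.50), GSTM5 (−1.15) and GSTM3 (−8.24), followed by EPS8L3, the macrophage growth factor gene CSF1 and AHCYL1. GSTM2 read 6.31, 7.46 and 7.21 in HCT 116, against 10.11, 10.52 and 10.18 in DLD1. These transferases are similar in sequence and their probes may share signal.

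Other runs lower in HCT 116 joined large differences reported above. QPCT (−9.40) and CYP1B1, a hormone-oxidising cytochrome (−4.65), stood in a run of 8 with CEBPZ, NDUFAF7, PRKD3, CDC42EP3, RMDN2 and HNRNPLL. TSPAN8 (−7.29) and LGR5 (−7.32) stood next to each other at the end of a run of 8 with RAB3IP, MYRFL, CNOT2, KCNMB4, PTPRB and PTPRR, in which the weakest difference was −0.53. The longest run held 9 genes from GFPT1, the entry enzyme of hexosamine synthesis, to C2orf42, with differences of −3.04 to −0.65. Runs of 8 higher genes were found among CT45A genes (0.47 to 1.03) and metallothioneins (0.67 to 1.14), families of near-identical members; CT45A8 and CT45A9 had the same value on every array and lay near background. Without HCT 116 siControl replicate 3 only CT45A5 and CT45A10 of the 8 stayed called, and CT45A2 missed the threshold in 10 of the 12 fits that left out a single array. Without DLD1 siControl replicate 2, MT2A (0.51, limma adjusted p = 0.106), MT1E (0.55, 0.177) and other metallothioneins missed the threshold, and so did C2orf42 (−0.63, 0.0628), MYRFL (−0.77, 0.0635), RAB3IP (−0.52, 0.0553) and AHCYL1 (−0.66, 0.0507). CNOT2 (−0.53, 0.0545) and KCNMB4 (−0.71, 0.0559) missed it without DLD1 siControl replicate 1.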
